A study of Homo sapiens with 24 samples.

Results

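ARM165 and AZ2 are 2 compounds given to MOLM14 cells for 24 h, and the comparison of the libraries from each is described here across all genes: what ARM165 did to the RNA of these cells beyond what AZ2 did. The members were the 4 MOLM14 libraries labelled ARM165 and the 4 labelled AZ2, which are 8 of the 24 libraries of the series, chosen by their labels alone. The 4 MOLM14 libraries treated with DMSO, the solvent, share the fit and are given beside them for a few genes and groups. OCI-AML2, the other leukaemia line of the series, had 4 libraries each with ARM165, AZ2 and DMSO for the same time. By its title the series is about PI3K gamma with AKT in acute myeloid leukaemia and about a heterobifunctional degrader, which is a molecule that binds a target protein at 1 end and a ubiquitin ligase at the other. Which of the compounds is the degrader, the concentrations, and whether replicates were separate cultures are not stated in the labels. The compounds were therefore compared at concentrations not known to match, and p-values cover library-to-library spread only, which could be technical. MOLM14 is a human acute myeloid leukaemia line with a KMT2A-MLLT3 fusion and an activating internal duplication of the receptor kinase FLT3, so every MOLM14 group carries both. This is not said of the OCI-AML2 groups. RNA of whole cultures was measured, so fewer cells of a kind and less RNA per cell cannot be told apart.

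As background, PI3K gamma is a lipid kinase of white blood cells, built from the catalytic subunit p110-gamma (PIK3CG) and an adaptor, p101 (PIK3R5) or p84 (PIK3R6). It is switched on by G-protein-coupled receptors and RAS, and the lipid it makes brings AKT kinases to the membrane. Active AKT holds FOXO transcription factors out of the nucleus, restrains the TSC complex and so releases mTORC1, and favours survival, ribosome production and lipid synthesis.

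Values are the authors' normalized estimated reads per gene symbol, called reads below, and library values are listed from replicate 1 to replicate 4. A change is the log2 change of ARM165 minus AZ2 on the log2(value + 1) scale with its standard error, and genes count as called where limma gave an adjusted p under 0.05 over all genes. Because of the scaling, rises and falls are relative to the other genes. Estimated depth was 35.4 M to 50.2 M reads in the ARM165 libraries, 36.1 M to 38.7 M in the AZ2 libraries and 44.8 M to 59.0 M in the DMSO libraries. On the first principal component, which held 59.5% of the variance, the 4 ARM165 libraries lay between -101 and -93.2, the AZ2 libraries between 49.0 and 51.4 and the DMSO libraries between 47.0 and 49.2. On the second, with 4.98% of the variance, AZ2 replicate 3 (50.4) and AZ2 replicate 4 (-34.9) lay apart from the other AZ2 libraries, and without both of them 9846 genes were called, against 10712 with all.

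Markers of a myeloid leukaemia line were present. CD33, the sialic acid-binding receptor of myeloid cells, averaged 2069 ± 92.7 reads with ARM165 and 2646 ± 78.4 with AZ2 (SD, n = 4 each). PTPRC, the leukocyte phosphatase CD45, averaged 6229 ± 328 reads with ARM165 and 2434 ± 116 with AZ2, and SPI1, the myeloid factor PU.1, 7877 ± 491 with ARM165 and 6409 ± 371 with AZ2. CD14, the monocyte co-receptor for lipopolysaccharide, stayed under 10 reads in each of the 8 libraries.

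Of 15288 genes tested, 10712 differed between ARM165 and AZ2 (70.1%), with 5516 higher (36.1%) and 5196 lower (34.0%) in ARM165 cells. The median change over all genes was 0.04 and the median size of a change was 0.64. Rises reached further than falls: 832 called genes rose by at least 2 on the log2 scale and 283 fell by that much, and at a size of 3 the counts were 379 and 54. In 9722 genes (63.6%) the 4 ARM165 and 4 AZ2 values did not overlap, and 1149 genes were called although their values overlapped. For 1400 genes (9.16%) the 95% interval of the change lay within 0.32 on either side of 0, so a larger change lay outside the interval for these. By the same test no gene was called between AZ2 and DMSO (0 of 15288, 0.0%), and the median size of a change was 0.080. An unadjusted limma p under 0.05 was met there by 899 genes (5.88%), a share near that threshold. ARM165 against DMSO gave 10623 called genes (69.5%). These comparisons share libraries, so they are not counted as separate evidence. DMSO values are given below for a few genes and groups only. Libraries scaled by their totals in place of the authors' factors shift the median change of all genes by 0.22, which makes 6851 genes higher and 4045 lower, and quantile normalization shifts it by -0.10. Small changes are read against these shifts. Counts within the lists below are read against the 36.1% higher and 34.0% lower of all genes tested. A list called divided or split that lies near these shares is not set apart from genes at large. Where the library values of a gene are listed below, the ARM165 and AZ2 values did not overlap unless this is stated.

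**Figure D1:**
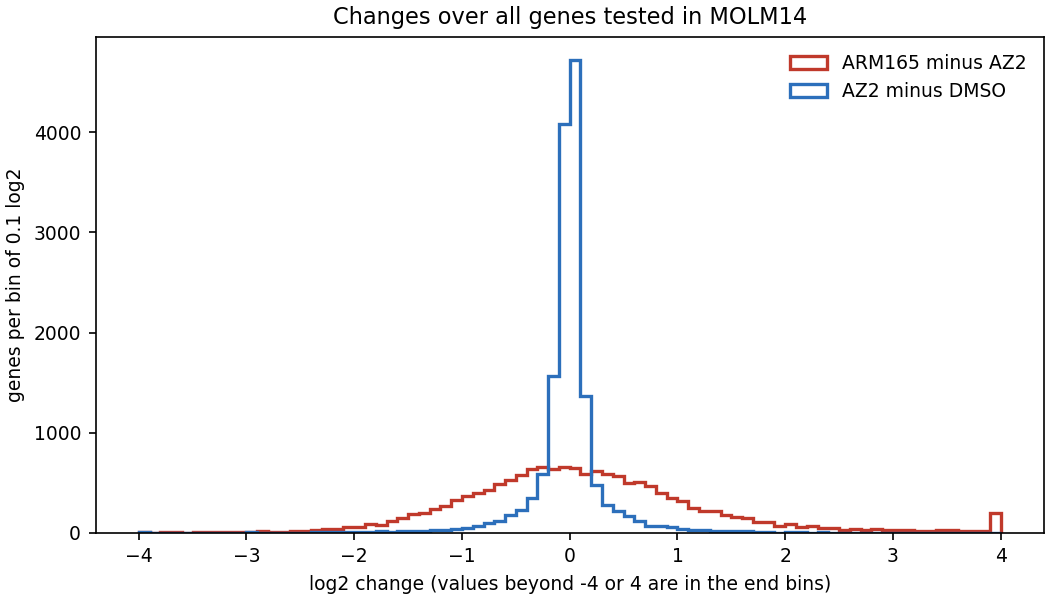
Number of MOLM14 genes (y axis) by log2 change (x axis, bins of 0.1) for ARM165 minus AZ2 and for AZ2 minus DMSO, over the 15288 genes tested. The changes between ARM165 and AZ2 are spread widely, with a median size of 0.64, while those between AZ2 and DMSO crowd around 0 with a median size of 0.080.

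Among the genes of the pathway named in the title, the subunits of PI3K gamma went different ways and AKT1 and AKT2 fell. PIK3CG, the catalytic subunit of PI3K gamma, had 2359, 2175, 2160.1 and 2108 reads in the ARM165 libraries, against 2969, 2903, 3316 and 2641 in the AZ2 libraries. The groups did not overlap, and the change was -0.42 ± 0.067 (adjusted p = 4.12e-05), with a DMSO mean of 3161 ± 201. PIK3R5, the p101 adaptor, had 1149, 1082, 1025 and 1036 reads with ARM165, against 283, 324, 333 and 266 with AZ2. Each ARM165 value was above each AZ2 value, and the change was 1.83 ± 0.10 (adjusted p = 1.19e-10). PIK3R6, the p84 adaptor, had 163, 136, 130.2 and 115 reads with ARM165 and 166, 192, 179.8 and 131 with AZ2. Its groups overlapped and it was not called (-0.29 ± 0.16, 95% interval -0.64 to 0.05), though it was called under quantile normalization and without AZ2 replicate 4. The DMSO mean of PIK3R6 was higher, at 213 ± 35.0. AZ2 minus DMSO was -0.35 ± 0.16 and not called, while ARM165 minus DMSO was called lower (-0.64 ± 0.16, limma adjusted p = 0.0023). PIK3CD, the catalytic subunit of PI3K delta, the other isoform enriched in white blood cells, had 3368, 3275, 3520.1 and 2930.2 reads with ARM165, against 8503, 8114, 8975 and 8217 with AZ2. All 4 ARM165 values lay far below the AZ2 values, and the change was -1.37 ± 0.054 (adjusted p = 5.17e-12).

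AKT1, the widely expressed AKT isoform, had 2459, 2884, 2969 and 2588 reads with ARM165, against 5522, 5537, 5531 and 6163 with AZ2, a change of -1.06 ± 0.063 (adjusted p = 4.99e-10). AKT2, the isoform best known from insulin signalling, had 1343, 1394, 1491 and 1449 reads with ARM165, against 2848, 2948, 2884 and 2793 with AZ2, a change of -1.02 ± 0.048 (adjusted p = 3.81e-11). Neither pair of groups overlapped. Over the list of 32 PI3K and AKT components, 19 rose, 9 fell and 4 were not called, with a median change of 0.38 against 0.04 over all genes. The negative regulators TSC2 (0.57 ± 0.086) and PHLPP1 (1.10 ± 0.15), which act against mTORC1 and AKT, were among those that rose, as was PIK3CA, the PI3K alpha catalytic subunit (1.02 ± 0.10). PIK3IP1, a membrane inhibitor of PI3K, had 603, 605, 701 and 515 reads with ARM165, against 163, 209, 239.7 and 234 with AZ2 (1.52 ± 0.14). PIK3AP1, the adaptor BCAP that recruits PI3K to receptors, had 3305, 3304, 3788 and 3746 reads with ARM165, against 7716, 7079.8, 7584 and 7340.1 with AZ2 (-1.07 ± 0.053). INPP5D, the lipid phosphatase SHIP1, fell (-0.46 ± 0.076).

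**Figure D2:**
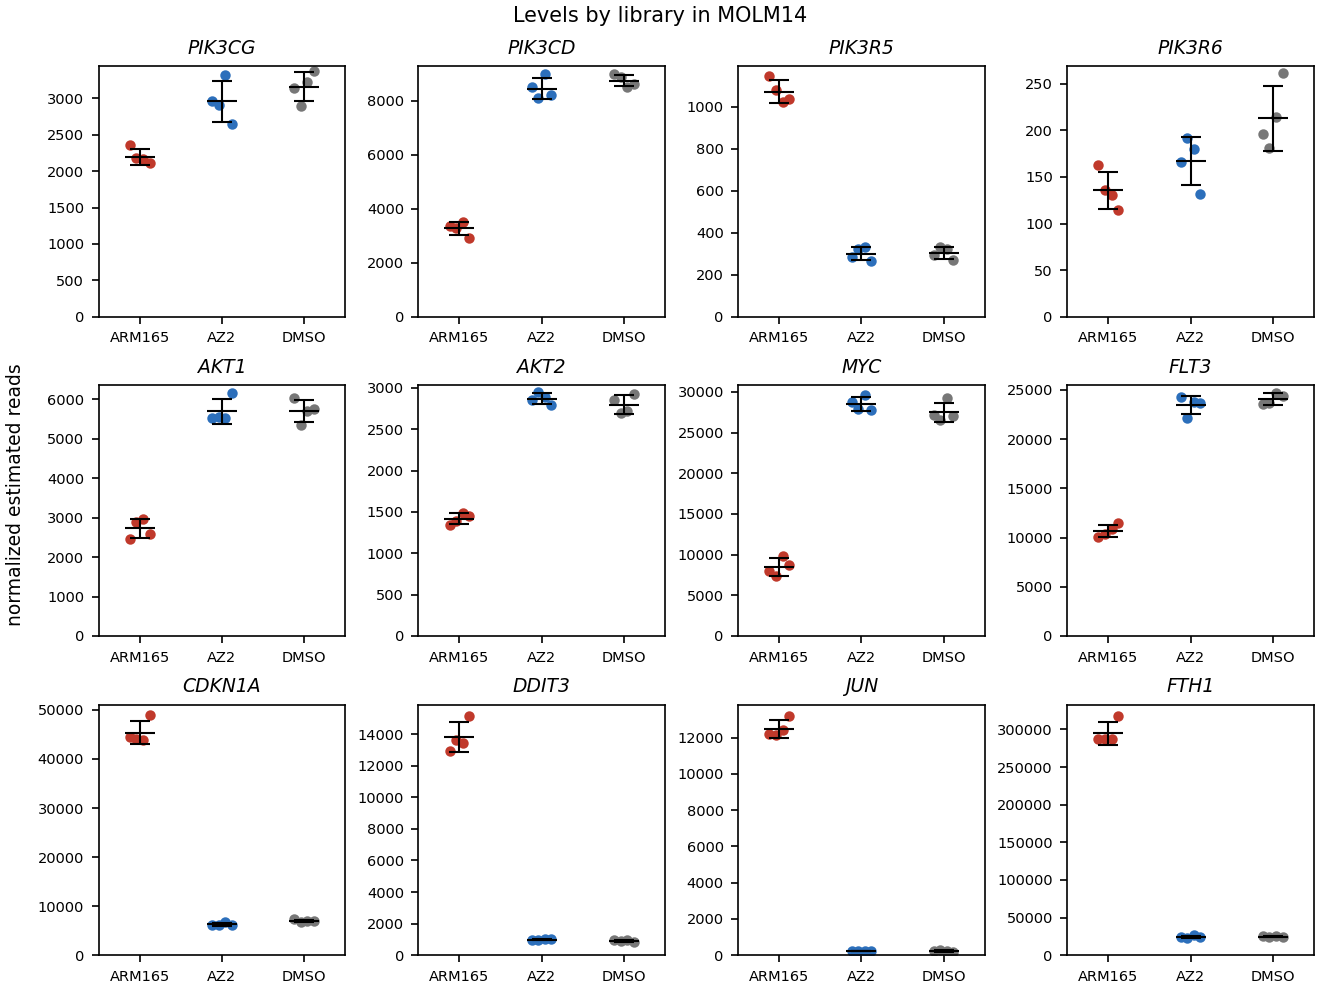
Normalized estimated reads (y axis, from 0) of 12 genes in each MOLM14 library treated with ARM165, AZ2 or DMSO, with the mean and SD of 4 libraries in black. AZ2 and DMSO libraries sit at like levels in each panel but that of PIK3R6, where the mean is 213 reads with DMSO and 167 with AZ2. In each panel but that of PIK3R6 the ARM165 libraries lie wholly above or wholly below the AZ2 libraries.

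Genes that FOXO factors are known to induce, which AKT normally holds down, were divided: 12 of 21 rose, 5 fell and 4 were not called, with a median change of 0.77. KLF6, a zinc-finger factor with growth-restraining roles, had 3733, 3574, 3467 and 3918 reads with ARM165, against 325, 349, 322 and 307 with AZ2 (3.49 ± 0.064). GADD45A, a growth-arrest gene also induced by p53, had 1788, 1867, 2028 and 2024 reads with ARM165, against 334, 283, 405 and 354 with AZ2 (2.49 ± 0.11). Other members moved the other way. BCL2L11, the death gene BIM, had 238, 352, 285 and 297 reads with ARM165, against 587, 699.6, 758 and 580.5 with AZ2 (-1.17 ± 0.11). CITED2, a co-regulator of CBP and p300, also fell (-1.07 ± 0.071). In the related family of KLF factors, 9 of 11 tested members rose and 1 fell, with a median change of 1.04. KLF10, a TGF-beta early response gene, rose (1.88 ± 0.068) and KLF16 fell (-1.34 ± 0.067).

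Rac and PAK effectors, which link PI3K to the actin skeleton, were split: 5 of 14 rose, 7 fell and 2 were not called. Over all genes 36.1% rose and 34.0% fell. The median change of the list, -0.12, becomes 0.10 under total scaling. PREX1, an exchange factor for Rac that PI3K lipids activate, rose (0.72 ± 0.043), as did ARHGEF7, which couples PAK to Rac and CDC42 (0.74 ± 0.046). ARHGDIB, a leukocyte inhibitor of GTPase cycling, had 12603, 12568, 13908 and 14180.0 reads with ARM165, against 32208, 30894, 32176 and 29790.3 with AZ2 (-1.23 ± 0.048). VAV2, another exchange factor, fell as well (-0.78 ± 0.061).

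Transcripts of the cereblon ligase and of proteins that cereblon-binding drugs recruit were also measured, since degraders of this type can act through that ligase. CRBN itself, the substrate receptor, had 1628, 1603, 1373 and 1966 reads with ARM165 and 1338, 1366, 1431 and 1367 with AZ2. The groups overlapped, the call was marginal (0.24 ± 0.091, adjusted p = 0.0256), and it was lost without ARM165 replicate 4, without AZ2 replicate 1 and in 3 other of the 24 alternatives. IKZF1, the lymphoid and myeloid factor IKAROS, had 5301, 5324, 5895 and 5969 reads with ARM165, against 9366, 8580.1, 9216 and 8487 with AZ2 (-0.67 ± 0.054). GSPT1, the translation termination factor eRF3a, fell by less (-0.38 ± 0.047). CSNK1A1, the kinase CK1-alpha, had 15908, 16690.5, 15609 and 19025 reads with ARM165, against 6229, 5415, 5857 and 5688 with AZ2 (1.53 ± 0.064). CUL4B, a scaffold of the ligase, rose (0.67 ± 0.066) and RBX1, its RING subunit, fell (-0.89 ± 0.047). Of the 13 tested genes of this list 4 rose, 6 fell and 3 were not called, and their median of -0.15 turns positive (0.07) under total scaling. These are mRNA values and carry no measurement of protein.

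Immediate early genes and ERK feedback genes, which respond to growth-factor and stress kinases, changed unevenly. JUN, an AP-1 subunit induced by stress kinases, had 12186, 12111, 12391 and 13166 reads with ARM165, against 210.0, 215, 243 and 212 with AZ2. The groups did not overlap, and the change was 5.82 ± 0.10 (adjusted p = 1.37e-15). PHLDA1, an immediate early gene also induced by stress, had 12606, 12537, 11656 and 13510.4 reads with ARM165, against 360.2, 323, 361 and 374 with AZ2 (5.15 ± 0.072). EGR1 and DUSP6 were among the 5 not called. EGR1, an immediate early zinc-finger factor, had 229, 294, 559 and 337 reads with ARM165 and 289, 371, 423 and 376 with AZ2, with overlap and an interval of -0.56 to 0.34. DUSP6, the phosphatase that ERK induces against itself, had 1035, 820.4, 1141 and 1052 reads with ARM165 and 940.0, 1131, 1185 and 1077 with AZ2, with overlap and an interval of -0.30 to 0.10. SPRY4, a Sprouty feedback inhibitor, fell (-1.57 ± 0.13), as did the ETS factor ETV4 (-1.25 ± 0.10). The list of 28 tested members held 15 that rose, 8 that fell and 5 not called, with a median change of 0.47.

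All 18 tested regulators of the amino acid stress response rose, with changes of 0.55 to 7.64 and a median of 2.36. In this response, kinases that sense missing amino acids, misfolded proteins or other stress slow translation, which raises the factor ATF4 and its targets. ATF4 had 76300.1, 73732, 77918 and 85369 reads with ARM165, against 55500.5, 49432, 54273 and 51095 with AZ2 (0.57 ± 0.051). DDIT3, the factor CHOP, which promotes death under lasting stress, had 12947, 13647, 13451 and 15164 reads with ARM165, against 935, 959, 1012 and 1018 with AZ2. No values overlapped, and the change was 3.81 ± 0.059 (adjusted p = 6.22e-16). ATF3, a stress-induced factor of the same family, had 7429, 8062, 6815 and 7332 reads with ARM165, against 305, 235, 247 and 267 with AZ2 (4.81 ± 0.12). GDF15, a secreted stress hormone, had 3270.4, 3076, 3328 and 3447 reads with ARM165, against 11.8, 17.9, 23.4 and 11.3 with AZ2 (7.64 ± 0.30). TRIB3, a pseudokinase that binds AKT (3.82 ± 0.076), PPP1R15A, the GADD34 subunit that restores translation (4.70 ± 0.068), and SESN2, a sestrin that restrains mTORC1 (2.79 ± 0.047), lay in between.

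Genes of serine, one-carbon and asparagine synthesis, only some of which this response is known to induce, did not rise as a group. Of 14 tested genes for serine, one-carbon and asparagine synthesis, 4 rose, 6 fell and 4 were not called, and the median of -0.10 is 0.12 under total scaling. ASNS, asparagine synthetase, had 10913, 11696, 12263 and 12494 reads with ARM165, against 7390.1, 6512, 7509 and 6667 with AZ2 (0.76 ± 0.053). GOT1, which makes aspartate in the cytosol, had 2078, 2061, 2276 and 2140.0 reads with ARM165, against 1238, 1167, 1348 and 1218 with AZ2 (0.78 ± 0.055). The serine enzyme PSAT1 (0.10 ± 0.051) and the mitochondrial folate enzymes SHMT2 (-0.085 ± 0.049) and MTHFD2 (-0.11 ± 0.055) were not called. ALDH18A1, the first enzyme of proline synthesis, had 762, 733, 887 and 829.9 reads with ARM165, against 2519, 2459, 2571 and 2384 with AZ2 (-1.63 ± 0.062), and MTHFD1, the cytosolic folate enzyme, also fell (-1.51 ± 0.043).

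Promoters of members that rose are shown because a composite element bound by ATF4 with C/EBP factors, written TGATGNAA, lay in them. The windows are the 250 bases before the start site, from RefSeq on GRCh38.p14, in the direction of the gene, with the match in capitals on either strand.
ASNS: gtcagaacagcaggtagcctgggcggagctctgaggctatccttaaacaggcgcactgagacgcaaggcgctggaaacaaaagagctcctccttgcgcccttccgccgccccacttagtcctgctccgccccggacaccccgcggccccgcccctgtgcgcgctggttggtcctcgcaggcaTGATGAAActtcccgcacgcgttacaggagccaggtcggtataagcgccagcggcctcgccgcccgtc
ATF3: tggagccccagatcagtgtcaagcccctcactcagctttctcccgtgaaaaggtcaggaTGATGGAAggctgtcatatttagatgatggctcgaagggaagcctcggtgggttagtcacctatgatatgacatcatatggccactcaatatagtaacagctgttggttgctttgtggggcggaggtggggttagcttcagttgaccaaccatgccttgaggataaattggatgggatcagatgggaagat
GOT1: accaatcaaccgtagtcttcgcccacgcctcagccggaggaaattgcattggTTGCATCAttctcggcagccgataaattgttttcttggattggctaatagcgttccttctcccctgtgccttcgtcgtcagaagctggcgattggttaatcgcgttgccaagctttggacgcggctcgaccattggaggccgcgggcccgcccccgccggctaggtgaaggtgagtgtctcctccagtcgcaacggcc
The ASNS window is chr7:97872409-97872658 on the minus strand, that of ATF3 is chr1:212565157-212565406 on the plus strand and that of GOT1 is chr10:99430625-99430874 on the minus strand. The match ended 60 bases before the start site in ASNS, 183 in ATF3 and 190 in GOT1, where it lies on the opposite strand. Of 10786 tested genes with a promoter in the table, 171 (1.59%) held TGATGNAA on either strand. Among the stress regulators 3 of 17 did (17.6%), namely CHAC1, ATF3 and HERPUD1. Among the serine and one-carbon genes 3 of 10 did, namely ASNS, GOT1 and MTHFD1L, of which MTHFD1L was not called (-0.064 ± 0.066). In genes that rose by at least 1 on the log2 scale the share was 1.93% of 1605, and in genes that fell by that much 1.62% of 1294. The motif can share letters with TGANTCA, the AP-1 element, which was counted separately and lay in 6.36% of the promoters of genes that rose by at least 1, 4.10% of those that fell by at least 1 and 4.18% of all. A match describes letters in the window only.

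Amino acid transporters and transfer RNA synthetases were divided. SLC38A2, a neutral amino acid importer, had 6493, 6912, 6805 and 7087 reads with ARM165, against 1949, 1944, 2008 and 1845 with AZ2 (1.82 ± 0.055). SLC7A11, the cystine importer that feeds glutathione synthesis, had 6463, 6775, 6503 and 7870.0 reads with ARM165, against 2158, 2118, 2150.1 and 1971 with AZ2 (1.71 ± 0.06). SLC38A5, a glutamine and serine transporter, had 343, 454, 464 and 495 reads with ARM165, against 2362, 2444, 2339 and 2404 with AZ2 (-2.45 ± 0.087). Of 14 transporters tested 6 rose, 6 fell and 2 were not called. Of 20 synthetases 9 rose, 10 fell and 1 was not called, and the median of -0.08 is 0.14 under total scaling. WARS, the tryptophan synthetase, had 15465, 15236, 15597 and 16266 reads with ARM165, against 4081, 3998, 3969 and 3894 with AZ2 (1.97 ± 0.039). FARSA, a subunit of the phenylalanine synthetase, had 4494, 4069, 5011 and 4497 reads with ARM165, against 13113, 12501, 13684 and 12315 with AZ2 (-1.52 ± 0.057).

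Genes that p53 activates rose with ARM165 relative to AZ2: 24 of 26 tested members rose, 1 fell and 1 was not called, with a median change of 1.67. Several of these genes are shared with the amino acid stress response, among them GDF15 and SESN2, which stand in both lists. CDKN1A, the cyclin-dependent kinase inhibitor p21, had 44414, 44078, 43956 and 48929 reads with ARM165, against 6081, 6070.4, 6845 and 6061 with AZ2. The groups did not overlap, and the change was 2.86 ± 0.051 (adjusted p = 1.63e-15). TP53INP1, a pro-apoptotic and autophagy-linked p53 target, had 5203, 5041, 4866 and 5435 reads with ARM165, against 525, 500.2, 581 and 588 with AZ2 (3.23 ± 0.064). MDM2, the ligase that degrades p53 (1.97 ± 0.048), BAX, the pore-forming death protein (1.08 ± 0.056), and FAS, a death receptor (0.94 ± 0.075), rose by less. TRIAP1, an anti-apoptotic target, fell (-0.37 ± 0.064), and POLH, a repair polymerase, was not called (-0.037 ± 0.065).

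The BCL2 family, which sets the threshold of mitochondrial death, was divided, with 8 of 15 members higher, 5 lower and 2 not called. BMF, a BH3-only death gene, had 1799, 1928, 1878 and 1869 reads with ARM165, against 115, 152, 117 and 139 with AZ2 (3.84 ± 0.13). BBC3, the p53 target PUMA, had 4140.3, 4118, 4272 and 4517 reads with ARM165, against 633, 672, 683 and 570.5 with AZ2 (2.74 ± 0.075). BCL2, the survival protein, had 4802, 4576, 4624 and 5396 reads with ARM165, against 7879, 7747, 8095 and 7866 with AZ2 (-0.71 ± 0.049). MCL1, another survival protein, moved the other way, with 19046, 18915, 18713 and 20014 reads with ARM165, against 13779, 12830.2, 12368 and 13067 with AZ2 (0.56 ± 0.04). BID (-1.41 ± 0.055), which connects death receptors to mitochondria, and BCL2A1 (-1.93 ± 0.13), a survival protein of myeloid cells, fell. Of 17 death receptor and caspase genes 13 rose, 2 fell and 2 were not called, with a median change of 0.77. CASP10, an initiator caspase, had 1041, 1201, 1055 and 1202 reads with ARM165, against 337, 326, 332 and 427 with AZ2 (1.66 ± 0.13). The 2 that fell were APAF1, the core of the apoptosome (-0.28 ± 0.059), which was not called under total scaling, and CFLAR, the caspase-8 inhibitor c-FLIP (-0.16 ± 0.066). The CFLAR values overlapped, its call was lost in 9 of 24 alternatives, among them those without ARM165 replicate 1, 2 or 4 and without AZ2 replicate 3 or 4, and its change was 0.054 under total scaling.

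In iron handling, HMOX1 and FTH1 rose steeply, and TFRC and STEAP3 fell. HMOX1, heme oxygenase, which frees iron from heme, had 14048, 14694, 13334 and 14890.3 reads with ARM165, against 53.9, 44.2, 39.3 and 28.9 with AZ2. No AZ2 library passed 53.9 reads, and the change was 8.42 ± 0.14 (adjusted p = 1.31e-15). FTH1, the ferritin heavy chain that stores iron, had 286606, 287250.0, 287119 and 318164 reads with ARM165, against 24329, 22369, 26623 and 23521 with AZ2, a change of 3.61 ± 0.055. Reads of FTH1 may be shared with its many processed pseudogenes. TFRC, the transferrin receptor that imports iron, had 577, 591, 572 and 546 reads with ARM165, against 2575, 2351, 2440.1 and 2403 with AZ2 (-2.09 ± 0.049), and STEAP3, the endosomal iron reductase, also fell (-2.14 ± 0.12). Of the 10 tested genes of iron handling 4 rose, 3 fell and 3 were not called. Among 18 NRF2 and antioxidant targets 13 rose and 5 fell, with a median change of 0.50. SQSTM1, the autophagy receptor p62 and an NRF2 target, had 10133, 10218, 10206 and 10744 reads with ARM165, against 2072, 2068, 2226 and 2088 with AZ2 (2.29 ± 0.041). PRDX1, a peroxide-reducing enzyme, had 6703, 6540.3, 7491 and 8118 reads with ARM165, against 22204, 20276, 21695 and 20986 with AZ2 (-1.57 ± 0.059), and thioredoxin, TXN, fell as well (-0.92 ± 0.052).

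Autophagy and lysosome genes, which TFEB-type factors and FOXO can induce, rose in 29 of 43 tested members, fell in 10 and were not called in 4, with a median change of 0.60. MAP1LC3B, the LC3 protein of autophagosome membranes, had 10677, 10743, 9712 and 11588 reads with ARM165, against 1431, 1238, 1452 and 1444 with AZ2 (2.94 ± 0.066). GABARAPL1, its relative, had 1733, 1751, 1709 and 1886 reads with ARM165, against 123, 121, 103 and 112 with AZ2 (3.94 ± 0.10). The lysosomal enzyme GLA, alpha-galactosidase, fell (-1.04 ± 0.052), as did CLN3, a lysosomal membrane protein (-0.54 ± 0.076). Summed over the 44 listed genes, this group took 0.466% ± 0.0092 of all reads with ARM165 and 0.207% ± 0.0011 with AZ2 (SD, n = 4 each). CACGTG, an E-box that TFEB and also MYC can bind, lay within 250 bases before the start in 9 of 31 of these genes with a promoter in the table (29%), against 8.83% of all 10786. Its share was 7.17% in the 1605 genes that rose by at least 1 on the log2 scale and 11.8% in the 1294 that fell by that much, so the motif did not go with rises in general.

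MYC and nearly all genes of ribosome biogenesis fell, while the MYC network around it was divided. MYC, a transcription factor that drives ribosome production and proliferation, had 8004, 7352, 9849 and 8747 reads with ARM165, against 28788, 27944, 29686 and 27772 with AZ2. The groups did not overlap, and the change was -1.76 ± 0.07 (adjusted p = 5.85e-12). Its antagonists MXD1 and MXI1, which compete for the partner MAX, rose. MXD1 had 1493, 1420.4, 1340.4 and 1514 reads with ARM165, against 330.4, 368, 359.5 and 339.8 with AZ2 (2.04 ± 0.073), and MXI1 changed by 1.33 ± 0.049, while MXD3, a family member linked to dividing cells, fell (-1.35 ± 0.11). In the whole MYC network list 4 of 11 rose, 6 fell and 1 was not called. Of 34 ribosome biogenesis and nucleolar genes 33 fell and 1 rose, with a median change of -1.35. TCOF1, the nucleolar protein treacle, had 2798, 2863, 3404 and 3138 reads with ARM165, against 12081, 11726, 12226 and 11263 with AZ2 (-1.96 ± 0.055). RRS1, an assembly factor of the large ribosomal subunit, fell by a like amount (-1.93 ± 0.061). RRN3, the initiation factor of RNA polymerase I, was the 1 that rose (0.64 ± 0.057).

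Genes of DNA replication fell in 40 of 40 tested members (median change -1.37, range -2.15 to -0.65), and genes of mitosis in 34 of 34 (median -1.20, range -1.72 to -0.33). UHRF1, which keeps DNA methylation through replication, had 5465, 4759.8, 5794 and 5475 reads with ARM165, against 24022, 22665, 24519 and 24156 with AZ2 (-2.15 ± 0.052). GINS2, a subunit of the replicative helicase, fell likewise (-2.11 ± 0.10). CDK1, the kinase that starts mitosis, had 4116, 4227, 4029 and 4832 reads with ARM165, against 15234, 13892, 13150.1 and 14282 with AZ2 (-1.72 ± 0.058). KIF20A, a mitotic kinesin, fell by 1.69 ± 0.068 on the log2 scale. CCNE1, cyclin E1, which drives entry into S phase, had 245, 213, 302 and 320.2 reads with ARM165, against 1284, 1252, 1287 and 1294 with AZ2 (-2.26 ± 0.11), and CCNE2 fell too (-1.70 ± 0.085). CDKN1C, the inhibitor p57, had 86.6, 65.4, 110.4 and 78.7 reads with ARM165, and was low with AZ2 (10.9, 2.86, 10.4 and 7.65). Of the 23 cyclin and inhibitor genes tested 9 rose, 13 fell and 1 was not called. CCAAT, the box bound by NF-Y, lay in 75% of 28 mitosis promoters and 57.1% of 35 replication promoters, against 35.0% of all promoters tested. It lay in 39.5% of promoters of genes that fell by at least 1 on the log2 scale and 31.4% of those that rose by that much. Lists that rose also held it often, with 58.8% of 17 amino acid stress regulators and 52.4% of 21 p53 targets.

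Histone mRNAs of the replication-dependent kind moved opposite to the replication genes. These transcripts normally end in a stem-loop without a poly(A) tail, and the libraries were made from poly(A) RNA, so the values cover polyadenylated forms. Of 20 tested histone genes 18 rose, none of them fell past the test and 2 were not called, with a median change of 2.97. HIST1H2AC had 2487, 2474, 2441 and 3322 reads with ARM165, against 98.5, 109, 87.5 and 71.7 with AZ2 (4.86 ± 0.18). HIST1H2BD had 519.7, 449.7, 426 and 575 reads with ARM165, against 25.5, 34, 38.4 and 6.97 with AZ2 (4.40 ± 0.48). HIST1H1C, a linker histone, rose too (4.22 ± 0.19), while HIST2H2AC (-0.40 ± 0.28) and HIST1H2BO (-0.05 ± 0.54) were not called. Together the 24 listed genes took 0.0174% ± 0.00097 of reads with ARM165 and 0.00144% ± 0.00018 with AZ2. Many histone copies are close to identical, so the split of reads among them is uncertain.

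Ribosomal protein genes had smaller changes. Of 41 cytosolic ribosomal protein and elongation factor genes 37 fell and 4 were not called, with a median change of -0.35 that shrinks to -0.13 under total scaling and to -0.0016 under quantile normalization. The counts change with the scaling: 5 rose and 29 fell under total scaling, and 14 rose and 15 fell under quantile normalization. EEF1A1, the elongation factor that delivers transfer RNA and the most abundant gene symbol with AZ2, had 651367, 627627, 731211 and 755068 reads with ARM165, against 2190840.0, 2011200.0, 1971880.0 and 1963620.0 with AZ2 (-1.56 ± 0.078). RPS2 fell (-0.77 ± 0.058) and RPS18 was not called (-0.05 ± 0.065), with a change of 0.17 under total scaling. RPS9 varied within groups, with 3221, 5619, 10946 and 7003 reads with ARM165 and 13416, 57317, 17399 and 8014 with AZ2, with overlap, so its fitted change is uncertain. Pseudogenes share reads with these genes. The 41 genes together took 11.4% ± 0.42 of reads with ARM165 and 15.0% ± 0.20 with AZ2.

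Mitochondrial ribosomal proteins fell in 28 of 32 tested genes, with 4 not called and a median of -0.85. MRPS12 (-1.58 ± 0.064) and MRPL4 (-1.40 ± 0.058) fell most. Nuclear genes of oxidative phosphorylation fell in 41 of 44 and were not called in 2, with a median of -0.65. ATP5MC1, a subunit of the ATP synthase ring, had 1831, 1812, 2360.2 and 2076 reads with ARM165, against 7543, 7255, 7457 and 7221 with AZ2 (-1.88 ± 0.071), whereas NDUFB5 of complex I was the 1 that rose (0.29 ± 0.08). Of 13 mRNAs encoded in mitochondrial DNA 12 fell and MT-ND1 was not called, with a median of -0.46. Under quantile normalization 2 rose, 7 fell and the median was -0.28. MT-ATP8 (-0.81 ± 0.067) and MT-ND6 (-0.79 ± 0.059) fell most, and MT-CO1, a core subunit of complex IV, fell by 0.41 ± 0.052 on the log2 scale, a call that quantile normalization does not keep. Their share of all reads was 4.80% ± 0.25 with ARM165, 5.73% ± 0.41 with AZ2 and 5.29% ± 0.16 with DMSO.

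Sterol synthesis genes, which SREBP2 controls, fell in 22 of 26 tested members, rose in 1 (NPC1L1, an intestinal sterol importer, 3.43 ± 0.61) and were not called in 3, with a median of -1.02. TMEM97, the sigma-2 receptor, had 362, 336, 417 and 460.5 reads with ARM165, against 2137, 2418, 2243 and 2059.9 with AZ2 (-2.50 ± 0.092). CCAAT lay in 17 of 20 sterol promoters (85%), against 35.0% of all promoters tested, and TCACNCCAC, a sterol-element sequence, in 1. FASN, fatty acid synthase, had 333, 259, 351 and 326 reads with ARM165, against 1385, 1287, 1732 and 1738 with AZ2 (-2.27 ± 0.11), and FADS2, a desaturase, fell further (-3.22 ± 0.16). ACSL1, which activates long-chain fatty acids, moved the other way, with 42004, 27137, 23361 and 26812 reads with ARM165, against 7419, 7206, 8465 and 7910.3 with AZ2 (1.91 ± 0.15). The NADPH-making malic enzyme ME1 also rose (1.89 ± 0.06), and of 17 genes in the fatty acid list 4 rose, 10 fell and 3 were not called. ABCA1, the cholesterol exporter that LXR induces, had 99.4, 93.4, 106 and 141 reads with ARM165, against 8.8, 9.58, 26 and 19.5 with AZ2. In the 12 genes of cholesterol efflux 4 rose, 4 fell and 4 were not called, and the median of -0.06 is 0.15 under total scaling.

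Glycolysis, lactate and hypoxia-linked genes were divided, with 13 of 33 higher, 19 lower and 1 not called. LDHA, lactate dehydrogenase, had 8484, 8273, 9704 and 9979.8 reads with ARM165, against 33356, 30780.1, 33966 and 31794 with AZ2 (-1.84 ± 0.06), and PDK3, a brake on pyruvate dehydrogenase, fell (-2.10 ± 0.18). VEGFA, the growth factor of blood vessels, had 15101, 14971, 15390.3 and 13101 reads with ARM165, against 3288, 3607, 3230.3 and 3154 with AZ2 (2.14 ± 0.055). BNIP3L, a receptor that marks mitochondria for autophagy, rose (1.56 ± 0.086).

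Most chaperone genes fell, while some of the endoplasmic reticulum rose. HSPA8, the constitutive HSC70, had 12411, 11699, 15042 and 14164 reads with ARM165, against 95745, 88606, 92684 and 86777 with AZ2 (-2.78 ± 0.067). HSPE1, the mitochondrial co-chaperonin, had 3084, 2813, 3775 and 3635 reads with ARM165, against 18380.5, 16416, 17645 and 17148 with AZ2 (-2.40 ± 0.076), and HSP90AB1 fell (-1.90 ± 0.061). DNAJB9, a co-chaperone of BiP, had 549.6, 522, 524 and 637 reads with ARM165, against 192, 185, 184 and 189.8 with AZ2 (1.56 ± 0.10). BiP itself, HSPA5, rose (0.88 ± 0.046), and the calcium-binding chaperone CALR fell (-1.57 ± 0.046). Across 32 tested chaperone genes 7 rose, 21 fell and 4 were not called, with a median of -0.74.

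**Figure D3:**
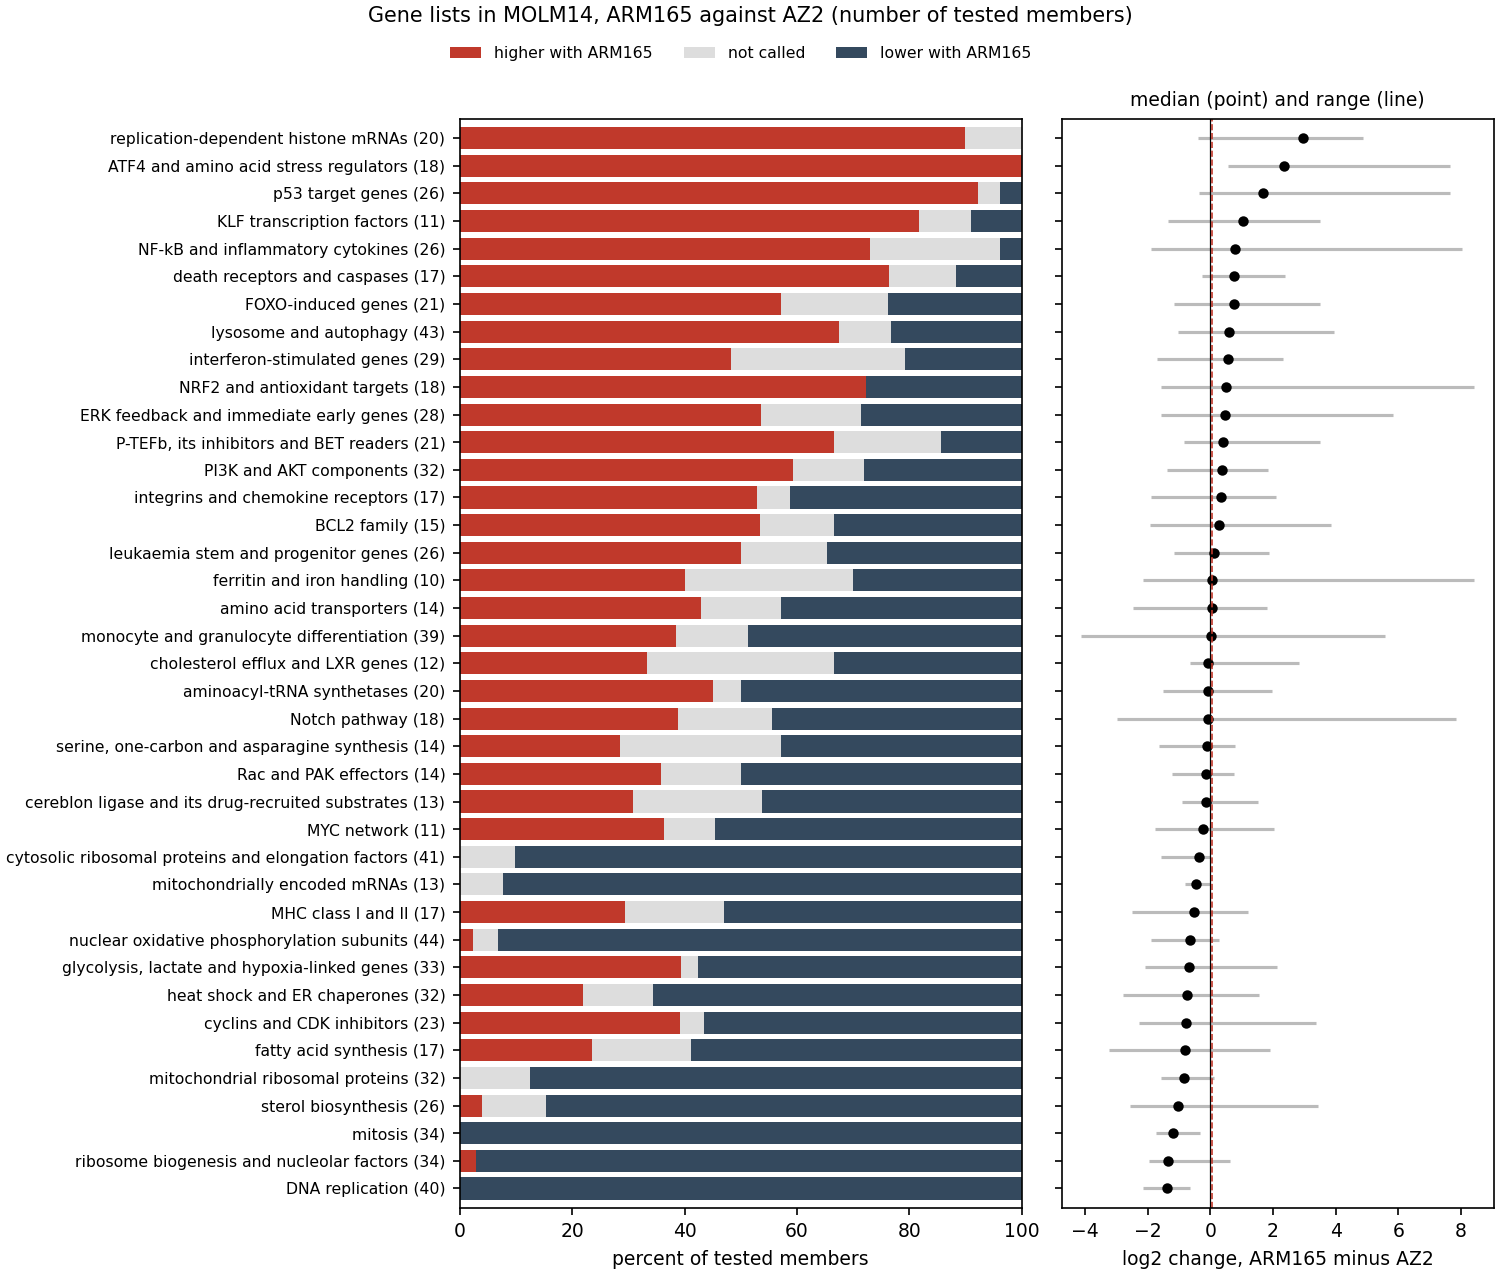
Gene lists with at least 5 tested members in MOLM14: on the left the percent of tested members higher, not called or lower with ARM165 than with AZ2, on the right the median (point) and range (line) of the log2 changes, with the median of all genes dashed. The histone, amino acid stress and p53 lists stand at the top with medians of 2.97, 2.36 and 1.67, and the mitosis, ribosome biogenesis and DNA replication lists at the bottom with -1.20, -1.35 and -1.37.

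Of the regulators of transcriptional pause release, 14 of 21 rose, 3 fell and 4 were not called, with a median of 0.39. HEXIM1, which inhibits P-TEFb and responds to bromodomain and transcription inhibitors, had 2682, 2793, 2702 and 3061 reads with ARM165, against 2489, 2519, 2556 and 2543 with AZ2, a small change (0.15 ± 0.047). AFF4, a scaffold of the super elongation complex, had 970.0, 962, 862 and 984 reads with ARM165, against 285, 300.4, 267 and 247 with AZ2 (1.78 ± 0.10), and ELL2, an elongation factor of that complex, rose from a low level (3.51 ± 0.31). The 3 that fell were AFF1 (-0.84 ± 0.053) and MLLT1 (-0.69 ± 0.063), members of such complexes, and MEPCE, which caps the inhibitory 7SK RNA (-0.49 ± 0.042).

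Leukaemia stem and progenitor genes were divided. FLT3, the receptor kinase mutated in this line, had 10065, 10318, 10852 and 11439 reads with ARM165, against 24333, 22164, 23786 and 23666 with AZ2. The groups did not overlap, and the change was -1.14 ± 0.046 (adjusted p = 6.51e-12). MYB, a progenitor factor, had 12319, 12164, 13812 and 13816 reads with ARM165, against 29791, 28856, 30702 and 27440.4 with AZ2 (-1.17 ± 0.05). HOXA9, a homeobox target of KMT2A fusions, had 4989, 4893, 4683 and 5649.8 reads with ARM165, against 3005, 2779, 2824 and 2871 with AZ2 (0.81 ± 0.055). MEIS1, its partner, had 807, 1016, 901 and 813 reads with ARM165, against 475, 486, 543 and 421 with AZ2 (0.88 ± 0.092). RUNX2, a Runt-domain factor, rose too (1.48 ± 0.056). In the list 13 of 26 tested genes rose, 9 fell and 4 were not called, against 36.1% higher and 34.0% lower over all genes.

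Myeloid differentiation genes did not move as 1 programme: 15 of 39 rose, 19 fell and 5 were not called, and the median of 0.03 is -0.18 under quantile normalization. S100A8, S100A9 and CCR2 were among the 10 largest falls among genes with a mean of at least 200 reads with ARM165 or AZ2 and no overlap. S100A8, a calcium-binding alarmin, had 92.5, 64.4, 54.6 and 56 reads with ARM165, against 1196, 1053, 1249.8 and 1099.9 with AZ2 (-4.11 ± 0.14). Its partner S100A9 fell with it (-3.12 ± 0.11). CCR2, the receptor that brings monocytes to inflamed tissue, had 213, 257, 325 and 357 reads with ARM165, against 2562, 2246, 2539 and 2498 with AZ2 (-3.12 ± 0.12). LYZ, lysozyme, fell as well (-2.85 ± 0.049), and so did the granule proteins MPO (-2.14 ± 0.18) and ELANE (-1.50 ± 0.10). Other members rose. CD86, the co-stimulatory ligand of antigen-presenting cells, had 1951, 1782, 1770.4 and 2104 reads with ARM165, against 91.6, 77.8, 159.6 and 149.8 with AZ2 (4.04 ± 0.21). CD163, a scavenger receptor (3.10 ± 0.78), and CEBPB, a C/EBP factor of monocytes (2.58 ± 0.082), rose too, while CSF1R, the receptor of macrophage growth factor, was not called (0.21 ± 0.18).

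Inflammatory genes under NF-kB rose in 19 of 26 tested members, fell in 1 and were not called in 6, with a median of 0.79. IL1A, an alarmin cytokine, had 504, 499.9, 415 and 429 reads with ARM165, and was at or near 0 with AZ2 (3.56, 0, 0 and 1.15). CXCL8, the neutrophil chemokine interleukin 8, had 883, 927, 777 and 958 reads with ARM165, against 7.06, 20.6, 7.87 and 16.8 with AZ2. RELB (1.63 ± 0.13) and NFKB2 (2.18 ± 0.091), subunits of the alternative pathway, rose, while NFKB1 (0.065 ± 0.057) and TNF (-1.88 ± 1.27) were not called. Interferon-stimulated genes rose in 14 of 29, fell in 6 and were not called in 9, against 36.1% higher and 34.0% lower over all genes. IFI16, a DNA sensor, had 5298, 5368, 5273 and 5827 reads with ARM165, against 1189, 1325, 1205 and 1299 with AZ2 (2.12 ± 0.079), and IFITM2, a membrane restriction factor, fell (-1.71 ± 0.11). MX1, an antiviral GTPase and a hallmark of interferon signalling, was not called (-0.14 ± 0.17).

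In antigen presentation, 5 of 17 tested MHC genes rose, 9 fell and 3 were not called. CIITA, the master activator of class II genes, had 33, 42.6, 68.4 and 75 reads with ARM165, against 163, 184, 156 and 242 with AZ2 (-1.80 ± 0.24), and HLA-DQB1 fell with it (-1.73 ± 0.17). HLA-B (0.58 ± 0.15) rose from low values, but reads of this polymorphic gene may be assigned to other copies. CXCR4, which holds leukaemia cells in the marrow, had 2799.5, 2568, 2756 and 3153 reads with ARM165, against 10268, 9979.6, 11382 and 10528 with AZ2 (-1.90 ± 0.057). ITGA4, a subunit of the adhesion receptor VLA-4, fell (-1.40 ± 0.067) and ITGAX, the integrin CD11c, rose (2.09 ± 0.20), within a list of 17 in which 9 rose, 7 fell and 1 was not called. In the Notch list 7 of 18 rose, 8 fell and 3 were not called, and the median of -0.08 is 0.13 under total scaling. HEY1, a Notch-responsive repressor, had 519, 469.8, 483 and 549 reads with ARM165, against 1.78, 0, 4.48 and 0.49 with AZ2. MAML2, a Notch co-activator, rose (3.57 ± 0.15), and NRARP, a feedback target of Notch, fell (-1.87 ± 0.10).

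Markers of other cell types were mostly low, but some were well read, and those tested moved in both directions. Of 17 markers of T and NK cells 7 stayed under 10 reads in all 12 libraries, and 6 passed the filter, of which 2 rose and 4 fell. The T-cell receptor subunit CD3E had 2.05 reads in AZ2 replicate 1 and was listed at 0 in the other 11 libraries, yet CD8A, the CD8 co-receptor, had 1374, 1388, 1329 and 1469 reads with ARM165, against 63.8, 21.3, 66.4 and 30.3 with AZ2 (5.06 ± 0.32). NCAM1 also rose, with means of 4171 reads with ARM165 and 3540 with AZ2 (0.24 ± 0.050). CD4 fell, with means of 1902 and 2222 reads (-0.23 ± 0.065). CD247 (-3.50 ± 0.51), GNLY (-1.05 ± 0.32) and NKG7 (-0.38 ± 0.089) fell as well. Among the 14 markers of B cells, 8 were tested, of which 3 fell and 5 were not called, with PAX5, a B-cell factor, at 365, 295, 279.6 and 267 reads with ARM165, against 609.7, 568, 521 and 439 with AZ2 (-0.82 ± 0.13). Of 20 erythroid and megakaryocyte markers 11 stayed under 10 reads, globins included, and 5 were tested, of which 1 rose (GP1BA, 0.61 ± 0.18, with overlapping groups) and 2 fell. EPOR was among those that fell, with means of 742 reads with ARM165 and 1014 with AZ2 (-0.46 ± 0.089). Of 19 epithelial and fibroblast markers 6 were tested, of which 1 was not called and 5 rose, among them KRT8 (1.20 ± 0.13), while KRT5 and EPCAM stayed under 12 reads. KRT18 rose too, with means of 3168 reads with ARM165 and 2042 with AZ2 (0.64 ± 0.063). The summed reads of the T and NK cell list were 7594 to 8341 with ARM165 and 6149 to 6888 with AZ2, and those of the B cell list 622 to 713 with ARM165 and 1182 to 1359 with AZ2. For erythroid cells and megakaryocytes they were 891 to 1149 with ARM165 and 1127 to 1283 with AZ2, and for epithelial cells and fibroblasts 4635 to 5024 with ARM165 and 2115 to 2454 with AZ2. Their part in the results above was not tested.

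Some genes were close to silent with AZ2 and clearly read with ARM165. Under 10 reads in every AZ2 library and at least 50 in every ARM165 library were 41 genes, while the reverse held for 1, APLN, the peptide hormone apelin (9.43, 2.1, 6.16 and 5.3 reads with ARM165, against 98.5, 117, 112 and 118 with AZ2). Among the 41, HIST2H3A and HIST2H3C had the same values in every library. DUSP8, PPARG and TATDN2P3, given below, passed 10 reads in 1 AZ2 library each and are not among the 41. DUSP8, a phosphatase of stress-activated kinases, had 4013, 3851, 3801 and 3164 reads with ARM165, and with AZ2 it was listed at 0 or about 0 in 3 libraries and at 12.7 in replicate 3. PPARG, the nuclear receptor of fat cells and macrophages, had 1121, 1100.3, 1237 and 1189 reads with ARM165, against 12.8, 0, 0 and 0 with AZ2. SPRR2D, a cornified-envelope gene of skin, was listed at 0 in all 4 AZ2 and all 4 DMSO libraries and had 921, 971, 1054 and 1076 reads with ARM165. Its close paralogs may share reads. LARP6, an RNA-binding protein of collagen mRNA, had 681, 683, 809 and 898 reads with ARM165, against 1.5, 0.106, 1.64 and 0.501 with AZ2. ABLIM3, an actin-binding protein (1323, 1513, 1166 and 1252 reads with ARM165, 0, 2.57, 1.93 and 7.49 with AZ2), NRAP, an actin-linked muscle protein (630.2, 775, 749 and 786 with ARM165, 0, 0, 4.76 and 0 with AZ2), and KLHDC7B (1119, 1227, 1039 and 988 with ARM165, 0, 1.22, 3.6 and 2.31 with AZ2) were alike. The pseudogene TATDN2P3 had 1678, 1902, 1664 and 1849 reads with ARM165, against 9.49, 0, 5.95 and 11.5 with AZ2. Of the genes tested, 23 were listed at 0 in all AZ2 libraries and no fold is given for them, since none has meaning against 0.

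Of the 10 largest falls with a mean of at least 200 reads in either group and no overlap, 6 lie outside the lists. MPEG1, the macrophage pore-forming protein perforin-2, had 80.3, 58.6, 91 and 96.7 reads with ARM165, against 783, 819.6, 789 and 999 with AZ2 (-3.38 ± 0.13). MS4A4A, a macrophage surface protein, had 25.3, 48.5, 21.2 and 17.8 reads with ARM165, against 205, 236, 249 and 289.8 with AZ2 (-3.17 ± 0.24). RASD1, a Ras-like protein induced by glucocorticoids, had 16.8, 19.7, 26 and 45.2 reads with ARM165, against 308, 305, 396 and 343 with AZ2 (-3.70 ± 0.24). TNFRSF19, a receptor of the TNF family, fell by 3.13 ± 0.12 on the log2 scale. ANXA8, an annexin with near-identical copies, fell too (-3.71 ± 0.13), and the clone-named AC026464.6 had values from 0 to 246 with ARM165, so its large change (-4.47 ± 1.16) is imprecise.

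The genes most abundant with AZ2 took a smaller share of reads with ARM165. The 10 gene symbols of highest mean with AZ2 took 7.51% ± 0.038 of reads with ARM165, 11.2% ± 0.29 with AZ2 and 11.0% ± 0.053 with DMSO (SD, n = 4 each). They were chosen on the AZ2 libraries, and the 10 highest symbols of each ARM165 library itself took 8.39% ± 0.028. Of the 10 chosen with AZ2, HNRNPA2B1, an RNA-binding protein of the spliceosome, fell (-0.61 ± 0.056), as did MT-CO2 (-0.67 ± 0.05) and MT-CO3 (-0.65 ± 0.048) of complex IV and MT-ND4 of complex I (-0.39 ± 0.057, not called under quantile normalization). TPT1, the translationally controlled tumour protein, rose (0.30 ± 0.068).

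Direction also varied with gene length. Protein-coding genes were put into 5 bins of equal size by genomic length. In the bin of the shortest 2771 genes, up to 10.4 kb, 26.8% rose, 46.8% fell and the median change was -0.23. In the bin of the longest 2771, from 94.8 kb, 48.0% rose, 21.9% fell and the median was 0.35. The bins between them were ordered in the same way. The difference between the medians of the outer bins does not depend on a common scaling factor, and its cause was not tested. Calls were fewer among low values: 36.1% of the 3822 least abundant genes were called and 87.7% of the 3822 most abundant, with median standard errors of 0.49 and 0.057. Direction varied with abundance as well. Of the most abundant genes 37.9% rose and 49.7% fell (median -0.12), and of the least abundant 23.5% rose and 12.5% fell (median 0.23). Protein-coding genes with more than 10 exons had a median of 0.18, and those with 2 to 4 exons -0.12. Length, abundance and exon number were not separated.

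**Figure D4:**
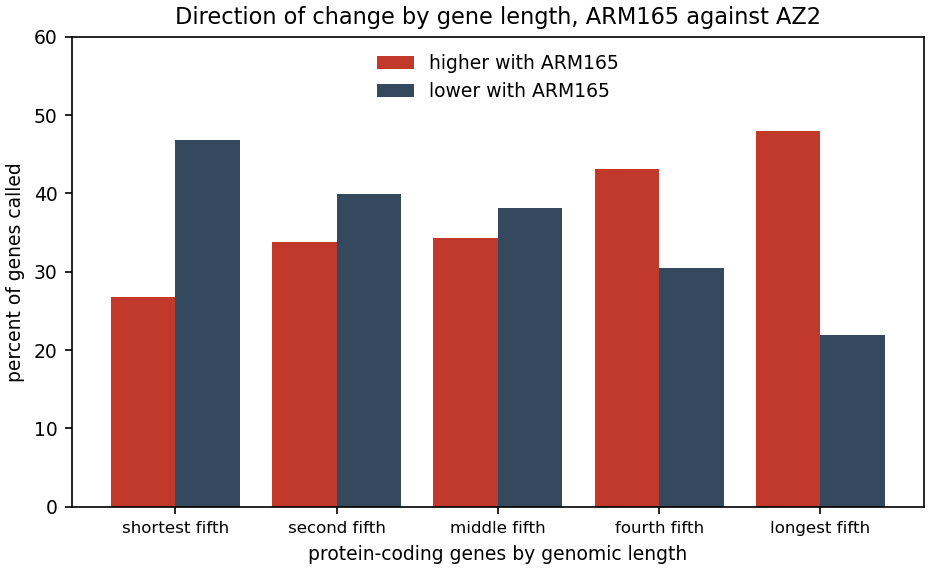
Percent of protein-coding genes (y axis) higher or lower with ARM165 than with AZ2 in 5 bins of equal size by genomic length (x axis). The share that rose is 26.8% in the shortest bin and 48.0% in the longest, and the share that fell is 46.8% and 21.9%.

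The same contrast in OCI-AML2 showed where MOLM14 stood apart. In 1 model of all 24 libraries, the change of ARM165 against AZ2 differed between MOLM14 and OCI-AML2 in 6252 of 14287 genes (43.8%), with 2583 more positive and 3669 more negative in MOLM14. In OCI-AML2 10124 genes differed between ARM165 and AZ2 (65.8%). Called in both lines and in the difference but with opposite signs were 691 genes, of which 277 rose in MOLM14 and fell in OCI-AML2 and 414 did the reverse. CDKN1A rose by less in MOLM14 (2.86 in MOLM14, 5.42 in OCI-AML2, difference -2.56 ± 0.11, adjusted p = 7.93e-15). ATF4 (0.57 in MOLM14, 2.10 in OCI-AML2, difference -1.53 ± 0.068, adjusted p = 2.71e-14), HEXIM1 (0.15 in MOLM14, 1.29 in OCI-AML2, difference -1.14 ± 0.058, adjusted p = 1.99e-13), CRBN (0.24 in MOLM14, 1.33 in OCI-AML2, difference -1.09 ± 0.13, adjusted p = 3.12e-07) and MCL1 (0.56 in MOLM14, 1.58 in OCI-AML2, difference -1.02 ± 0.076, adjusted p = 1.82e-10) also rose by less in MOLM14. IKZF1 (-0.67 in MOLM14, -1.51 in OCI-AML2, difference 0.85 ± 0.072, adjusted p = 1.75e-09), BCL2 (-0.71 in MOLM14, -1.56 in OCI-AML2, difference 0.85 ± 0.069, adjusted p = 7.46e-10) and PIK3CG (-0.42 in MOLM14, -1.30 in OCI-AML2, difference 0.88 ± 0.088, adjusted p = 2.21e-08) fell by less in MOLM14. For MYC the difference between lines was not called (-1.76 in MOLM14, -1.93 in OCI-AML2, difference 0.18 ± 0.092, adjusted p = 0.13), nor was it for HOXA9 (0.81 in MOLM14, 0.74 in OCI-AML2, difference 0.072 ± 0.088, adjusted p = 0.541), PIK3CD (-1.37 in MOLM14, -1.20 in OCI-AML2, difference -0.17 ± 0.095, adjusted p = 0.144) or PIK3R6 (-0.29 in MOLM14, -0.38 in OCI-AML2, difference 0.086 ± 0.37, adjusted p = 0.873). CLDN1, a tight-junction protein, differed widely: it had 51, 57.6, 48 and 58 reads with ARM165 and 0.637, 0, 0.64 and 0 with AZ2 in MOLM14, and 17790.4, 14453, 16261 and 17291 with ARM165 and 9.81, 6.83, 7.31 and 3.65 with AZ2 in OCI-AML2. CPXM1, a carboxypeptidase-like protein, had 210.2, 274, 304 and 249.96 reads with ARM165 and 744, 697, 872 and 821 with AZ2 in MOLM14, where it fell, and 396, 282, 315 and 309.8 with ARM165 and 34.2, 2.99, 34.3 and 36.1 with AZ2 in OCI-AML2, where it rose. TMTC1, a mannosyltransferase, had 315, 454, 368 and 265 reads with ARM165 and 2.58, 1.22, 21.2 and 1.15 with AZ2 in MOLM14, and 729.9, 726, 780.3 and 862 with ARM165 and 705, 820.1, 599.9 and 824 with AZ2 in OCI-AML2. The tables were scaled separately, so only the changes within a line were compared. The scaling within each line still enters these differences. Mean library totals were 38.7 M with ARM165 and 44.9 M with AZ2 in MOLM14, and 43.1 M and 43.8 M in OCI-AML2. Total scaling was not run for the difference between lines, so small differences and the counts in each direction could shift with it.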

How the data were processed

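Total RNA of MOLM14 and OCI-AML2 cells was made into poly(A) stranded libraries, per the labels' protocols, and transcripts were quantified with kallisto, per the submitters' processing notes, which give no version. The genome build, the annotation and the scaling method are not given in the sources used here. The deposited signal values are normalized estimated reads per gene symbol, in 1 table per line that the authors scaled separately, with 35587 symbols and 12 libraries each. Their values are not whole counts, and at most 15.6% of MOLM14 values above 0 lay within 0.01 of a whole number of reads, so no count test was run. Estimated depth is each library's total divided by its value of 1 read.

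Libraries were grouped by the line and treatment in their labels. Genes with at least 10 in at least 4 of the 12 MOLM14 libraries were kept, and log2(value + 1) was fitted with 1 mean per group in limma 3.58.1 (R 4.3.3), with a variance trend, 9 residual and 5.63 prior degrees of freedom and Benjamini-Hochberg adjustment over all genes. Intervals are 95% intervals of single genes. The difference between lines was tested in 1 fit of 24 libraries. On simulated counts drawn around the AZ2 and DMSO means, the ARM165 against AZ2 test recovered 99 of 100 genes changed by 1 on the log2 scale. It recovered 71 of 100 changed by 0.5, with 8 false calls among 14941 genes. The simulation used the same spread setting for every gene and changed only these genes, none of them near the floor. It checks that the fit runs correctly and does not give error rates for the real libraries, where most genes were called.

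The comparison and the 43 gene lists were chosen with earlier results of these data known, and lists are described by counts and medians without a test. Genes named are 22 fixed ones, up to 10 largest rises and 10 largest falls with a mean of at least 200 and no overlap, up to 2 rises and 2 falls per list with a mean of at least 50, the 10 most abundant with AZ2, and up to 4 line differences each way. Other genes were named after their values were seen. Some genes that these rules name are not reported here. Alternatives were other pseudocounts, filters, scalings, variance models, a replicate block and the removal of libraries. Of the genes tested, 15207 are in GENCODE release 29, which gave lengths, and promoters come from RefSeq (GRCh38.p14). Figures were drawn with matplotlib 3.10.9.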

Additional observations from a re-analysis of the deposited data

Results flagged for a closer look

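Values of 361 groups of 4 MOLM14 libraries were looked at for the genes named, and in 26 of them (7.20%) 1 library lay far from the other 3, by a rule that chance meets in about 1 of 20 groups. In ARM165 replicate 4 the highest values of their group were GSPT1 at 7599 reads (the others at 6628 to 6727), CDKN1A at 48929 reads (the others at 43956 to 44414) and HIST1H2AC at 3322 reads (the others at 2441 to 2487). In ARM165 replicate 4 the highest values of their group were MTHFD1 at 2927 reads (the others at 2658 to 2666), SQSTM1 at 10744 reads (the others at 10133 to 10218) and FTH1 at 318164 reads (the others at 286606 to 287250.0). In ARM165 replicate 4 the highest values of their group were TRIAP1 at 4584 reads (the others at 3795 to 3924) and TPT1 at 440089 reads (the others at 355069 to 361557). In ARM165 replicate 4 the lowest value of its group was GLA at 1040.5 reads (the others at 1150.4 to 1172). In AZ2 replicate 1 the highest values of their group were ETV4 at 1282 reads (the others at 1223 to 1225), ELL2 at 23.5 reads (the others at 10.1 to 11.9) and PPARG at 12.8 reads (the others at 0 or about 0). In AZ2 replicate 1 the lowest value of its group was IFIT2 at 34.7 reads (the others at 50.8 to 53.3). In AZ2 replicate 2 the highest value of its group was MT-ND6 at 65413 reads (the others at 54259 to 55965). In AZ2 replicate 2 the lowest values of their group were MAP1LC3B at 1238 reads (the others at 1431 to 1452) and NRARP at 991 reads (the others at 1019 to 1025). In AZ2 replicate 3 the highest values of their group were CDKN1A at 6845 reads (the others at 6061 to 6081), JUN at 243 reads (the others at 210.0 to 215) and MRPL4 at 6812 reads (the others at 6188 to 6272). In AZ2 replicate 3 the highest values of their group were SQSTM1 at 2226 reads (the others at 2068 to 2088), DUSP8 at 12.7 reads (the others at 0 or about 0) and NRAP at 4.76 reads (the others at 0 or about 0). In AZ2 replicate 4 the highest values of their group were AKT1 at 6163 reads (the others at 5522 to 5537), CASP10 at 427 reads (the others at 326 to 337) and MPEG1 at 999 reads (the others at 783 to 819.6). In AZ2 replicate 4 the lowest value of its group was ITGA4 at 2190.0 reads (the others at 2352 to 2383). Leaving out ARM165 replicate 4, which held 9 of these values, left 10404 genes called, against 10712 with it.

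The change of ARM165 against AZ2 differed between lines in 25 genes, by the test of the difference itself, given as log2 MOLM14 minus OCI-AML2. Only the fixed genes and those of the largest line differences were looked at, not every gene named. The latter were picked among genes that this same test called, so their calls were certain beforehand. Of all genes in the model of 24 libraries 43.8% were called. Among the fixed genes PIK3CD, PIK3R6, MYC and HOXA9 were not called. The change was more positive in MOLM14 for PIK3CG (0.88), PIK3R5 (0.74), IKZF1 (0.85), BCL2 (0.85), MEIS1 (0.90) and FLT3 (0.43). It was more negative in MOLM14 for AKT1 (-0.54), AKT2 (-0.35), CRBN (-1.09), GSPT1 (-0.45), HEXIM1 (-1.14), CDKN1A (-2.56), MCL1 (-1.02), DDIT3 (-0.63), ATF4 (-1.53), EGR1 (-0.79) and DUSP6 (-0.87). Among genes with the largest differences it was more positive in MOLM14 for AC025283.2 (6.56), SPRR2D (6.31), TMTC1 (6.21) and UTP14C (5.57), and more negative for INO80B-WBP1 (-6.80), AC010422.6 (-5.76), CLDN1 (-5.67) and CPXM1 (-5.57). SPRR2D was listed at 0 in all MOLM14 AZ2 libraries, so the size of its fitted difference depends on the pseudocount. The standard errors of AC025283.2, UTP14C, AC010422.6 and INO80B-WBP1 were 1.53 to 2.45, and their values varied widely within groups. UTP14C, for example, ranged over 335 to 949.9 reads with ARM165 and up to 216 with AZ2 in MOLM14.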

How the results depend on the processing

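The number of genes called between ARM165 and AZ2 in MOLM14 ranged from 9846 (both outlying AZ2 libraries left out, an alternative added after seeing the data) to 10896 (total scaling) over 24 alternatives, against 10712. With a size of at least 1 on the log2 scale also required, 4204 genes were called, 2364 higher and 1840 lower. Leaving out 1 library at a time gave 10209 to 10672 calls, of which 5140 to 5514 higher and 4994 to 5264 lower, and for the difference between lines 5903 to 6213 calls, of which 2376 to 2554 more positive and 3422 to 3814 more negative in MOLM14. Without the filter 10767 genes were called, and with a filter at 50 reads 9940. Of 180 named genes tested, 10 changed their call under some alternative, and the sign changed under total scaling for CFLAR (0.054) and RPS18 (0.17), which shifts all genes upwards. EEF1A1 and MT-CO1 ranked alike in all libraries, so quantile normalization gives them a change of 0 by construction. The medians of 7 of 43 lists changed sign under some scaling.

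Same-numbered ARM165 and AZ2 libraries deviated together only weakly (r = 0.012 to 0.056), so the numbers were not taken as pairs, although each ARM165 library was closest to the AZ2 library of its own number, a hint from the data. No ARM165 library was closest to the DMSO library of its own number. AZ2 replicates 2, 3 and 4 were closest to the DMSO library of their own number, and AZ2 replicate 1 was not. With a replicate block 10702 genes were called. Of the 3822 least abundant genes 36.1% were called, and no alternative changed the depth.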
